A study of Mus musculus with 12 samples.

Results

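Semaphorins are guidance proteins, and plexins and neuropilins are the receptors that read them. All 31 mouse genes of these families were described here, namely 20 semaphorins, 9 plexins and 2 neuropilins. They were found by matching the Ensembl identifiers of the deposited table to their symbols, and each of the 31 had a row among the 25674 rows of the table. RNA was measured by sequencing in spiral ganglion neurons, which link the hair cells of the cochlea with the brainstem. Neurons were isolated at E14.5 from both inner ears of an embryo of either sex, and 100 cells carrying the red reporter tdTomato were sorted per library. The 6 control libraries were Neurod1Cre; Rosa26tdTOM. The 6 libraries labelled Isl1CKO were Neurod1Cre;Isl1loxP/loxP;Rosa26tdTOM, so that the controls carried Cre and the reporter but no floxed Isl1. The Cre is a transgene driven by Neurod1 sequence, so the reporter marks cells with present or past activity of that transgene. The lines had a mixed C57BL/6/sv129 background and the embryos came from 4 litters. The labels number the samples as technical replicates while the design text calls them biological. They were treated as separate embryos, and p-values weigh the difference between groups against the spread between these libraries. The litter of each sample is not given, so littermates could not be accounted for in the fits.

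A growing axon senses semaphorins through plexins, whose intracellular part acts on small GTPases and through them on the cytoskeleton. Class 3 semaphorins are secreted and most of them need a neuropilin as the binding part of a receptor with an A-type plexin. Classes 4 to 6 are transmembrane proteins that mostly bind plexins directly, and Sema7a is held in the membrane by a lipid anchor. In the cochlea, Sema3f acting on neuropilin 2 is known to keep auditory fibres of the type that serves inner hair cells within their territory.

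The libraries were checked before the members were read. Total counts ran from 11895603 to 13857480. Isl1 itself, the targeted gene, ranged from 1171 to 1777 CPM in controls and from 1050 to 1589 CPM in Isl1CKO libraries (CPM, the read count scaled for library size). Its log2 fold change of -0.15 (SE 0.11) was not past the threshold (edgeR adjusted p = 0.460), so whole-gene counts do not separate the genotypes, and all directions below are those of libraries labelled Isl1CKO. Whether the floxed segment was still present cannot be read from gene-level counts. Libraries Isl1CKO 2, 3 and 5 held both Xist (62.9 to 132 CPM) and transcripts of 4 Y-linked genes (mean of 35.7 to 87.3 CPM), although each sample is described as 1 embryo. Results are therefore also given without these 3 libraries. Among the others, controls 3 and 4 and Isl1CKO 6 held Xist (185 to 398 CPM) and at most 0.426 CPM of the Y-linked mean. Controls 1, 2, 5 and 6 and Isl1CKO 1 and 4 held Y-linked transcripts and at most 0.373 CPM of Xist. Sex was thus not balanced between the groups, and its part in the results was not tested. The share of mitochondrial counts was 1.05% to 1.65% in controls and 0.845% to 1.02% in Isl1CKO libraries, so that it separated the groups, and its part in the results was not tested. All 12 markers of sensory neurons were above 3 counts in every library. Of these, Nefl, Nefm, Elavl4 and Gata3 were lower and Stmn2 and Neurod1 higher in Isl1CKO libraries. The summed level of the 12 separated the groups, at 17535 to 20108 CPM in controls and 14959 to 17421 CPM in Isl1CKO libraries. The mean of their log2(CPM + 1) values overlapped, at 9.91 to 10.3 and 8.81 to 9.99. The part of this difference in the results was not tested. Markers of other cells were lower in sum and uneven between libraries. The summed level of 10 Schwann and satellite glia markers ranged from 32.0 to 206 CPM in controls and from 35.0 to 333 CPM in Isl1CKO libraries. For 10 macrophage markers these ranges were 2.07 to 397 and 1.46 to 727 CPM. For 10 mesenchyme markers they were 38.6 to 84.5 and 72.0 to 122 CPM, and the mean of their log2(CPM + 1) values separated the groups, at 0.908 to 1.36 and 1.75 to 2.49. Tbx18 (means of 1.09 and 39.5 CPM) and Col3a1 (2.66 and 14.1 CPM) were higher in Isl1CKO libraries. Col1a2 averaged 1.30 and 4.67 CPM and Prrx1 0.337 and 4.72 CPM. Lower means were those of Pou3f4, at 52.9 and 27.4 CPM, Twist1, at 1.13 and 0.0129 CPM, and Lum, at 0.474 and 0.273 CPM. Col1a1, Dcn and Pdgfra averaged at most 0.701 CPM in either group. The 9 markers of otic epithelium and hair cells measured summed to 250 to 520 CPM in controls and 300 to 595 CPM in Isl1CKO libraries, most of it Myo6, which averaged 407 and 410 CPM. The 9 endothelial markers measured summed to at most 5.93 CPM in controls and 35.5 CPM in Isl1CKO libraries, with Tie1, Cldn5 and Emcn at or under 3 counts in all 12. The part of these other cells in the results below was tested only through a fit with Schwann and macrophage levels as covariates.

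Of the 31 genes, 27 had enough counts to be tested and 5 changed between the groups. Sema3e, Sema6d, Sema3c and Plxna4 were lower in Isl1CKO libraries, and Nrp2 was higher. The 5 calls were 18.5% of the tested members, against 10.2% of all 14813 tested genes (quasi-likelihood test in edgeR, with p adjusted over all tested genes and a threshold of 0.05). The 4 lower calls compare with 5.19% of all tested genes that were lower, and the single higher call with 5.01% that were higher. Sema3e, Sema6d, Plxna4 and Nrp2 also had a log2 fold change of at least 1 in size, as did 4.99% of all tested genes. The 27 members had a median log2 fold change of -0.21, against 0.0045 for all tested genes. At an unadjusted p under 0.05 there were 10 members, or 37% of the 27, against 23.3% of all tested genes. Without Isl1CKO 2, 3 and 5 the count was 3, namely Sema3e, Sema6d and Nrp2. That fit of 9 libraries tested all 31 members and called 767 of 16222 genes.

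**Figure D1:**
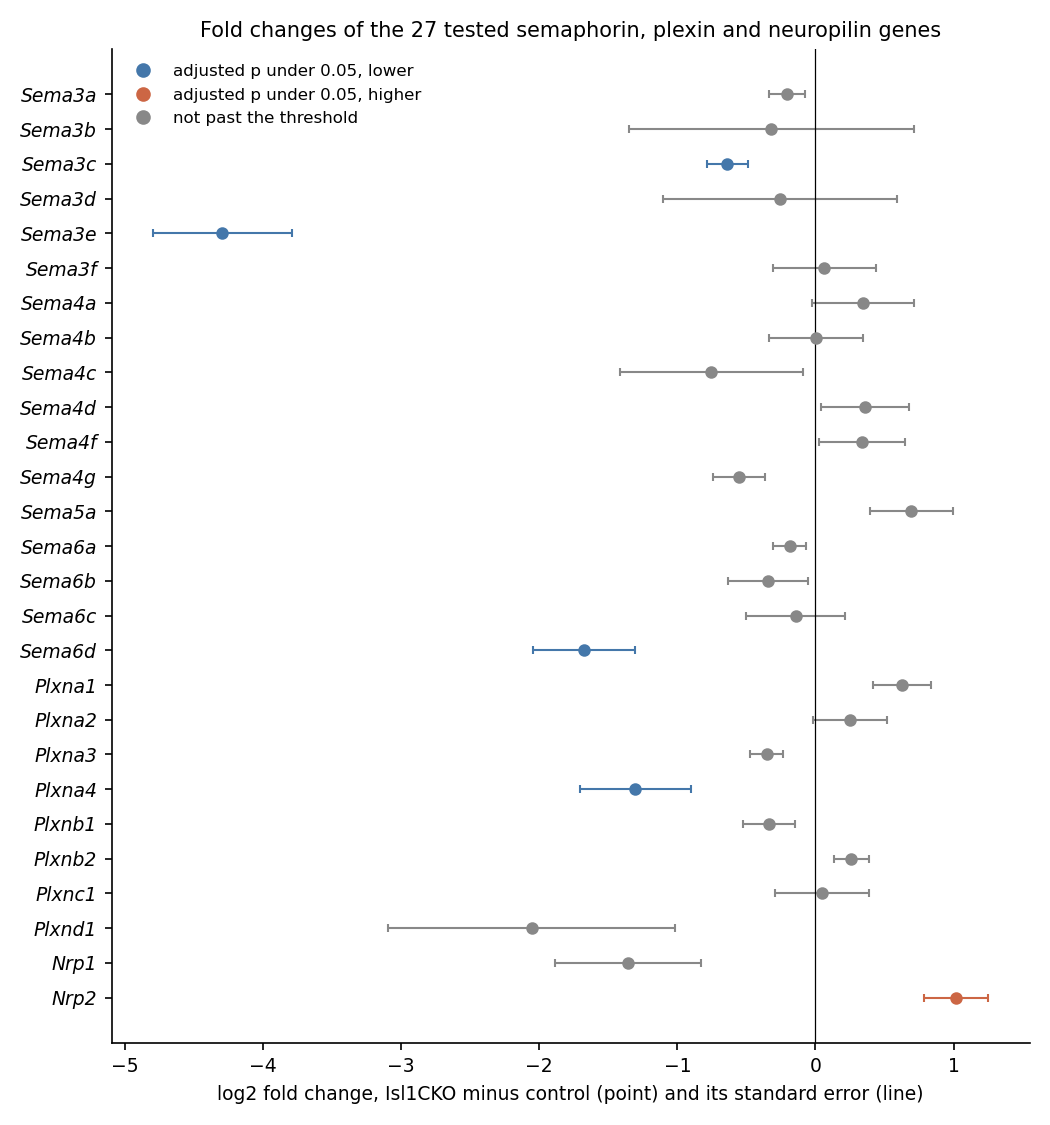
Log2 fold change of each of the 27 tested genes, Isl1CKO minus control (x axis, points), with its standard error (lines), for 6 libraries per group; blue and orange points passed an adjusted p of 0.05. Sema3e at -4.29 lies farthest from 0, and Nrp2 at 1.02 is the only orange point.

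The start regions of the called genes with a log2 fold change of at least 1 in either direction are shown because these moved most among the called genes. RefSeq windows on GRCm38.p6 run from 250 bases before to 50 after a transcript start, and 26 of the 31 members had one. Plxna4 did not. The windows are those of Sema3e (chr5:14025026-14025325, plus strand), of the more upstream of 2 Sema6d starts (chr2:124089719-124090018, plus strand) and of Nrp2 (chr1:62703067-62703366, plus strand). Each reads 5′ to 3′, and capitals mark CACGTG, a palindromic sequence bound by several basic helix-loop-helix proteins.
Sema3e: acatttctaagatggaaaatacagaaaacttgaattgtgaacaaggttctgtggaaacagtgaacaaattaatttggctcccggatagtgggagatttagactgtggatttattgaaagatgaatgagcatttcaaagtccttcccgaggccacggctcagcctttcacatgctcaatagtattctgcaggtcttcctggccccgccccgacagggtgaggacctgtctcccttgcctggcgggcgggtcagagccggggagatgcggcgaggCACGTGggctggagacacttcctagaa
Sema6d: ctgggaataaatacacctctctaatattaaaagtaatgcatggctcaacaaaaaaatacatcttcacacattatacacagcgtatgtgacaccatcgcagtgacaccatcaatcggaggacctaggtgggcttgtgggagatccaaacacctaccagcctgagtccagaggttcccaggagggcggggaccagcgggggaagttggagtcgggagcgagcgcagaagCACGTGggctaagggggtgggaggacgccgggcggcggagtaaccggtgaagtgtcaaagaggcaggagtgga
Nrp2: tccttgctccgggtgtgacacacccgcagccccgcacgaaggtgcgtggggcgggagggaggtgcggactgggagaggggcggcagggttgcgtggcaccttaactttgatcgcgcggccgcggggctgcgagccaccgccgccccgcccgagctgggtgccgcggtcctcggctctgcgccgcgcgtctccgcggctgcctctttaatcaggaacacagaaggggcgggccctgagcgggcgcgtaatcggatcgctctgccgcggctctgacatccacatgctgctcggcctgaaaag
CACGTG was looked for only after the windows had been read, and 7.15% of all 32851 windows hold it, against 3 of the 37 member windows, or 8.11%. The members with it are Sema3e, Sema6d and Sema4b, the last with a log2 fold change of 0.00. In Sema3e it begins 23 bases after the start of the transcript and in the Sema6d window shown 23 bases before it. The second Sema6d window, at the more downstream start, did not hold CACGTG. The last 50 bases of the window shown were found in 2 of 11 annotated Sema6d transcripts, and those of the second window in 8. Around CACGTG, the Sema3e window and the shown Sema6d window share the run GCACGTGGGCT. This run occurs on either strand in 11 windows, or 0.0335% of all. It was picked, after the windows had been read, as the longest run shared in the 5 pairs of windows compared. The 11 windows include those of Sema3e and Sema6d themselves. Its rarity follows from this search and does not test whether the genes share an element. Neither the windows shown nor the second one of Sema6d (chr2:124653331-124653630) held CTAATNG, a core bound by LIM homeodomain proteins such as ISL1. They held neither TAATTA nor CAGATG, an E-box of the kind bound by NEUROD1. These 3 motifs, searched on both strands, occur in 5.76%, 5.29% and 17.2% of all windows. Among members, CTAATNG was found at Sema3a and CAGATG at Sema3c and Sema4a. The Nrp2 window was rich in G and C, at 70.7%, against a median of 52.7% over all windows and 50.7% for Sema3e.

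Among the secreted class 3 ligands, 6 of 7 were tested, 2 were lower and 4 did not pass. Sema3e (ENSMUSG00000063531, chromosome 5, 14025276 to 14256689 in GENCODE M21 on GRCm38) encodes a ligand that binds plexin D1 without a neuropilin. Its level in controls was 53.2 CPM at the lowest, 64.3 at the median and 82.9 at the highest. In Isl1CKO libraries the lowest was 0.233, the median 2.87 and the highest 7.60 CPM. The groups were far apart, and Isl1CKO 2, the library with the least, had 3 counts, the number taken as the floor of detection. Groups that do not overlap were found for 2 of the 27 tested members and for 6.78% of all tested genes. Sema3e averaged 65.6 ± 12.5 CPM in controls against 3.33 ± 2.74 CPM (SD, n = 6), a 19.6-fold fall and a log2 fold change of -4.29 (SE 0.50; edgeR adjusted p = 4.65e-05). Without Isl1CKO 2, 3 and 5 it was -4.81 (edgeR adjusted p = 1.69e-05), and with the glial and macrophage levels as covariates it was -4.06 (edgeR adjusted p = 5.80e-04). In these pooled libraries, fewer expressing cells and less RNA per cell cannot be told apart.

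Sema3c (ENSMUSG00000028780, chromosome 5, 17574281 to 17730268) encodes a ligand of both neuropilins. Controls ranged from 83.6 to 123 CPM around a median of 115, and Isl1CKO libraries from 53.7 to 88.9 CPM around 66.5. Controls 1 and 3, at 83.6 and 88.4 CPM, lay below Isl1CKO 1, and the other 4 controls were above every Isl1CKO library. This amounted to -0.64 on the log2 scale (SE 0.15; edgeR adjusted p = 0.0117). Its size was alike at -0.61 without Isl1CKO 2, 3 and 5, but the call was lost (edgeR adjusted p = 0.0987).

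Sema3a, the classic repellent read by neuropilin 1, was the most abundant of all 31 genes per kilobase of exon in both groups. It ranged from 262 to 475 CPM in controls and from 282 to 369 CPM in Isl1CKO libraries, all of which fell inside the control range. Its log2 fold change was -0.21 (SE 0.13), with a 95% interval of -0.49 to 0.07 (edgeR adjusted p = 0.376). The remaining class 3 genes were sparse. Sema3f, the ligand of neuropilin 2, was at 4.14 ± 1.44 and 4.33 ± 1.92 CPM (SD, n = 6), and its interval on the log2 scale ran from -0.73 to 0.86. Sema3d averaged 4.57 and 3.82 CPM with a range of 0.373 to 15.1 CPM among Isl1CKO libraries. Sema3b averaged 1.32 and 1.05 CPM, and Sema3g, at 0.290 and 0.861 CPM, was below the filter.

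Sema3d, Sema3a, Sema3e and Sema3c lie in this order on the plus strand of chromosome 5. The gap between Sema3a and Sema3e is 423 kilobases. Of the 36 table genes from the start of Sema3d to the end of Sema3c, 18 were tested. Of these 18, 6 were called, in both directions, against 10.2% of all tested genes. The region was drawn from members and holds the called Sema3e and Sema3c, so this share is no test of the region. The 6 were Sema3e, Sema3c, Cacna2d1, Gm43519, Gm43000 and Gm43490. They are not separate loci, since Gm43519 lies inside the span of Sema3e, and Gm43000 and Gm43490 inside that of Cacna2d1. Gm43519 (14027894 to 14029765), a transcript model on the same strand inside the span of Sema3e but outside its exons, averaged 23.4 CPM in controls and 0.926 CPM in Isl1CKO libraries, which is -4.65 on the log2 scale (SE 0.76; edgeR adjusted p = 9.47e-04). Pclo, a presynaptic scaffold gene downstream of Sema3e, averaged 48.7 and 34.8 CPM (edgeR adjusted p = 0.258). Cacna2d1, a calcium channel subunit gene between Sema3e and Sema3c, was higher by 1.87 on the log2 scale (SE 0.10; edgeR adjusted p = 5.10e-08). On chromosome 9, from Sema3b to Sema3f, 3 of 5 genes were tested and 0 were called.

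The 6 transmembrane class 4 genes were all tested and none passed in edgeR's test, with 1 at an unadjusted p under 0.05 and 1 called by the DESeq2 Wald test. Both were Sema4g, which averaged 23.0 ± 5.05 CPM in controls and 15.6 ± 3.16 CPM in Isl1CKO libraries (SD, n = 6; log2 fold change -0.56, SE 0.19; edgeR adjusted p = 0.0855). Sema4f was the most abundant of its class per kilobase of exon, at 2.87 ± 1.26 and 3.63 ± 1.36 CPM per kilobase (SD, n = 6). Sema4d, the ligand of plexin B1, averaged 7.0 and 8.97 CPM with an interval of -0.32 to 1.04 on the log2 scale. Sema4a, Sema4b and Sema4c averaged between 1.43 and 9.63 CPM in either group. Exons of Sema4c overlap a gene on the opposite strand, so its counts are uncertain where strand was not used.

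Of the 2 class 5 genes, whose proteins carry thrombospondin repeats, Sema5a was tested. Its mean level was 24.1 ± 14 CPM in controls and 39.0 ± 8.60 CPM in Isl1CKO libraries (SD, n = 6), with a log2 fold change of 0.70 (SE 0.30; edgeR adjusted p = 0.177). Control 3 held 48.9 CPM while the other controls held 12.7 to 31.6 CPM, and leaving out control 3 raised the log2 fold change to 1.02 (edgeR adjusted p = 0.0180). Leaving out Isl1CKO 2, 3 and 5 lowered it to 0.46 (edgeR adjusted p = 0.624). With limma-voom on all 12 libraries it was 0.92 and passed (limma-voom adjusted p = 0.0223). Sema5b averaged 1.15 and 1.6 CPM and was below the filter.

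Class 6 is the family of transmembrane ligands of A-type plexins, and 1 of its 4 tested genes was lower. Sema6d (ENSMUSG00000027200, chromosome 2, 124089969 to 124667770) encodes a ligand of plexins A1 and A4. Controls held 80.9 CPM at the lowest, 94.6 at the median and 139 at the highest. Isl1CKO libraries held 7.70, 30.1 and 66.4 CPM in the same order. No library of one group reached the other, although Isl1CKO libraries differed among themselves, with Isl1CKO 5 highest and Isl1CKO 6 lowest. On the log2 scale the fall was -1.68 (SE 0.37; edgeR adjusted p = 0.00850), and it was -1.91 without Isl1CKO 2, 3 and 5 (edgeR adjusted p = 0.0195). Its relative Sema6a, on chromosome 18, is known as a ligand of plexins A2 and A4 and was the second most abundant member. It ranged from 158 to 220 CPM in controls and from 120 to 198 CPM in Isl1CKO libraries, with an interval of -0.45 to 0.07 on the log2 scale (edgeR adjusted p = 0.393). Sema6b and Sema6c averaged 5.30 to 6.73 CPM and did not pass. Sema7a, the lipid-anchored class 7 gene, averaged 0.654 and 1.25 CPM and was below the filter.

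**Figure D2:**
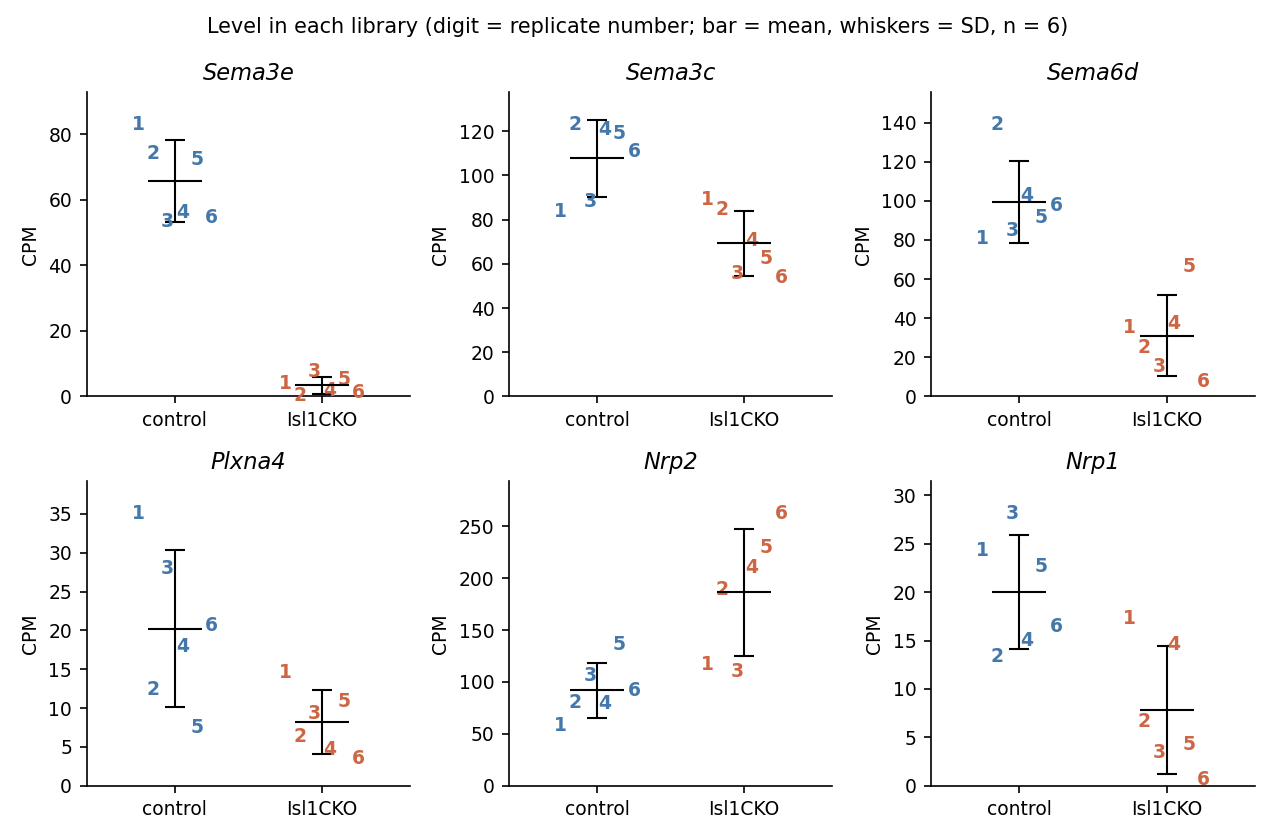
CPM in each library for Sema3e, Sema3c, Sema6d, Plxna4, Nrp2 and Nrp1; digits are replicate numbers of control (blue) and Isl1CKO (orange) libraries, horizontal bars are means and whiskers SD (n = 6). The groups are separate for Sema3e and Sema6d and overlap for the other 4 genes.

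Summed per kilobase of exon, the 20 semaphorins reached 95.7 ± 10.6 CPM per kilobase in controls and 71.8 ± 5.63 in Isl1CKO libraries (SD, n = 6). The lowest control, at 80.8, was above the highest Isl1CKO library, at 78.5. Sema3e made up 7.36% ± 0.953 of this sum in controls and 0.508% ± 0.445 in Isl1CKO libraries, and Sema6d 9.83% ± 1.45 and 3.99% ± 2.50 (SD, n = 6). Sema3a and Sema6a took 27.8% and 22.6% in controls and 32.5% and 26.3% in Isl1CKO libraries. These are shares of a smaller sum, and the levels themselves were not higher. Sema3a averaged 26.8 CPM per kilobase in controls and 23.2 in Isl1CKO libraries, and Sema6a 21.6 and 19. The 15 genes other than Sema3a, Sema6a, Sema3c, Sema6d and Sema3e shared 16.7% in controls and 23.2% in Isl1CKO libraries.

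**Figure D3:**
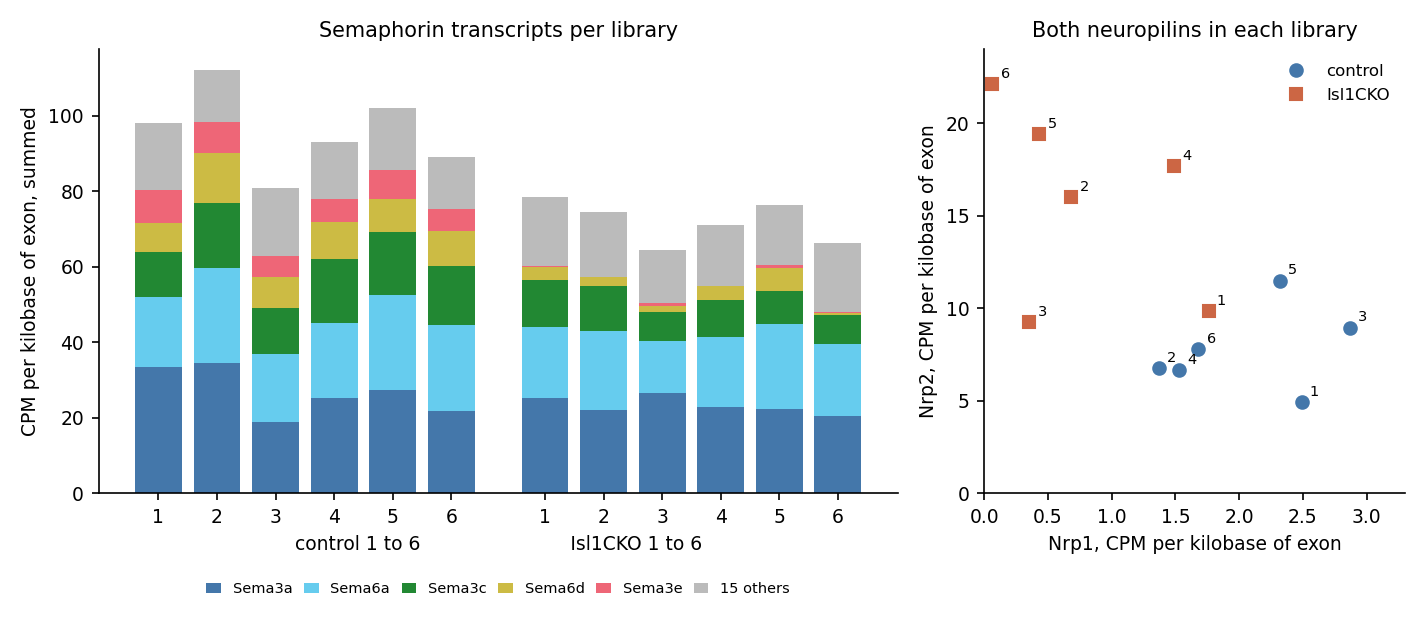
Left, semaphorin levels stacked per library in CPM per kilobase of exon, with 5 genes in colour and the 15 others in grey; right, Nrp1 (x axis) against Nrp2 (y axis) per library in the same unit, with replicate numbers. The Sema3e block is 6.50% to 9.10% of each control bar and at most 1.27% of an Isl1CKO bar, and Isl1CKO points lie toward higher Nrp2 and lower Nrp1.

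Of the receptors, the neuropilins are the binding parts for class 3 ligands. Nrp2 (ENSMUSG00000025969, chromosome 1, 62703285 to 62818695) was lowest at 58.3, at a median of 86.1 and highest at 136 CPM in controls. In Isl1CKO libraries the lowest was 110.0, the median 200 and the highest 262 CPM. Isl1CKO 1 and 3, at 117 and 110.0 CPM, lay below control 5, and the other 4 Isl1CKO libraries were above every control. The means of 91.9 ± 26.8 and 186 ± 61.4 CPM (SD, n = 6) gave a log2 fold change of 1.02 (SE 0.23; edgeR adjusted p = 0.00997). It was 1.09 without Isl1CKO 2, 3 and 5 (edgeR adjusted p = 0.0369) and 1.11 with the glial and macrophage covariates (edgeR adjusted p = 0.0437).

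Nrp1, the receptor part best known for binding Sema3a, was at 13.4 to 28.1 CPM in controls and at 0.610 to 17.3 CPM in Isl1CKO libraries. Isl1CKO 1 and 4 lay in the control range and the other 4 below it. Its log2 fold change was -1.36 (SE 0.53) and did not pass (edgeR adjusted p = 0.134). It passed with DESeq2 (adjusted p = 0.0471) and with limma-voom (adjusted p = 0.0457). Its size moved from -0.89 without Isl1CKO 2, 3 and 5 (edgeR adjusted p = 0.567) to -2.37 with the glial and macrophage covariates (edgeR adjusted p = 0.0728). Per kilobase of exon, Nrp2 made up 66.4% to 83.2% of both neuropilins together in controls and 84.8% to 99.7% in Isl1CKO libraries, so these ranges did not overlap. Nrp1 is also made by endothelial cells, and the part of such cells in its level was not tested.

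The 4 A-type plexins are the signalling partners of neuropilins and the direct receptors of class 6. Plxna4 (ENSMUSG00000029765, chromosome 6, 32144268 to 32588192) ranged from 7.53 to 35.0 CPM in controls, with a median of 19.2, and from 3.51 to 14.6 CPM in Isl1CKO libraries, with a median of 7.77. Controls 2 and 5 lay inside the range of the Isl1CKO libraries. The log2 fold change was -1.30 (SE 0.40), and its adjusted p of 0.0496 in edgeR's test stood at the threshold itself. The call was lost in 14 of 21 other settings, among them with the replicate number as a block (edgeR adjusted p = 0.0564) and without Isl1CKO 2, 3 and 5 (edgeR adjusted p = 0.209). The log2 fold change stayed between -1.55 and -1.08 in all 21. Exons of Plxna4 and Plxna1 overlap genes on the opposite strand, and those of Plxnc1, Nrp1 and Sema4a short genes on the same strand, which leaves those counts uncertain.

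Just outside the threshold were Plxna1 and Plxna3. Plxna1, a receptor of class 3 and class 6 signals, averaged 19.6 ± 5.66 CPM in controls and 30.3 ± 6.85 CPM in Isl1CKO libraries (SD, n = 6; log2 fold change 0.62, SE 0.21; edgeR adjusted p = 0.0767). In 3 of 21 other settings Plxna1 passed. These were the replicate number as a block (edgeR adjusted p = 0.0465), the DESeq2 Wald test (adjusted p = 0.0345) and the fit without control 5 (edgeR adjusted p = 0.0319). Plxna3, the most abundant A-type plexin per kilobase of exon, averaged 80.7 ± 14.6 and 63.2 ± 7.23 CPM (SD, n = 6; log2 fold change -0.35, SE 0.12; edgeR adjusted p = 0.0882). Plxna3 and Plxnb3 lie on the X chromosome, and the part of sex in their levels was not tested. Plxna2 averaged 50.8 and 60.4 CPM with an interval of -0.33 to 0.83 on the log2 scale, and Isl1CKO 1 stood at 116 CPM. The sum of the 4 A-type plexins was 16.8 ± 2.15 and 15.5 ± 2.36 CPM per kilobase (SD, n = 6).

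Plxnb2, a receptor of class 4 semaphorins, was the most abundant plexin in Isl1CKO libraries. It averaged 76.1 ± 9.61 and 91.1 ± 16.2 CPM (SD, n = 6; edgeR adjusted p = 0.237). Plxnb1, the receptor of Sema4d, averaged 43.0 and 34.0 CPM (edgeR adjusted p = 0.309), and its exons overlap a gene on the opposite strand. Plxnb3 was below the filter at 1.07 and 0.517 CPM. Plxnc1, the receptor of Sema7a, averaged 18 ± 10.4 and 18.6 ± 4.02 CPM (SD, n = 6) with an interval of -0.67 to 0.77 on the log2 scale. Plxnd1, the receptor of Sema3e, was scarce. It ranged from 0.222 to 9.68 CPM in controls and from 0 to 2.76 CPM in Isl1CKO libraries, with the 2 highest controls being 1 and 3. Its log2 fold change of -2.05 had an SE of 1.04 and did not pass (edgeR adjusted p = 0.253). The 9 plexins summed to 33.9 ± 2.99 CPM per kilobase in controls and 33.2 ± 3.52 in Isl1CKO libraries (SD, n = 6).

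**Figure D4:**
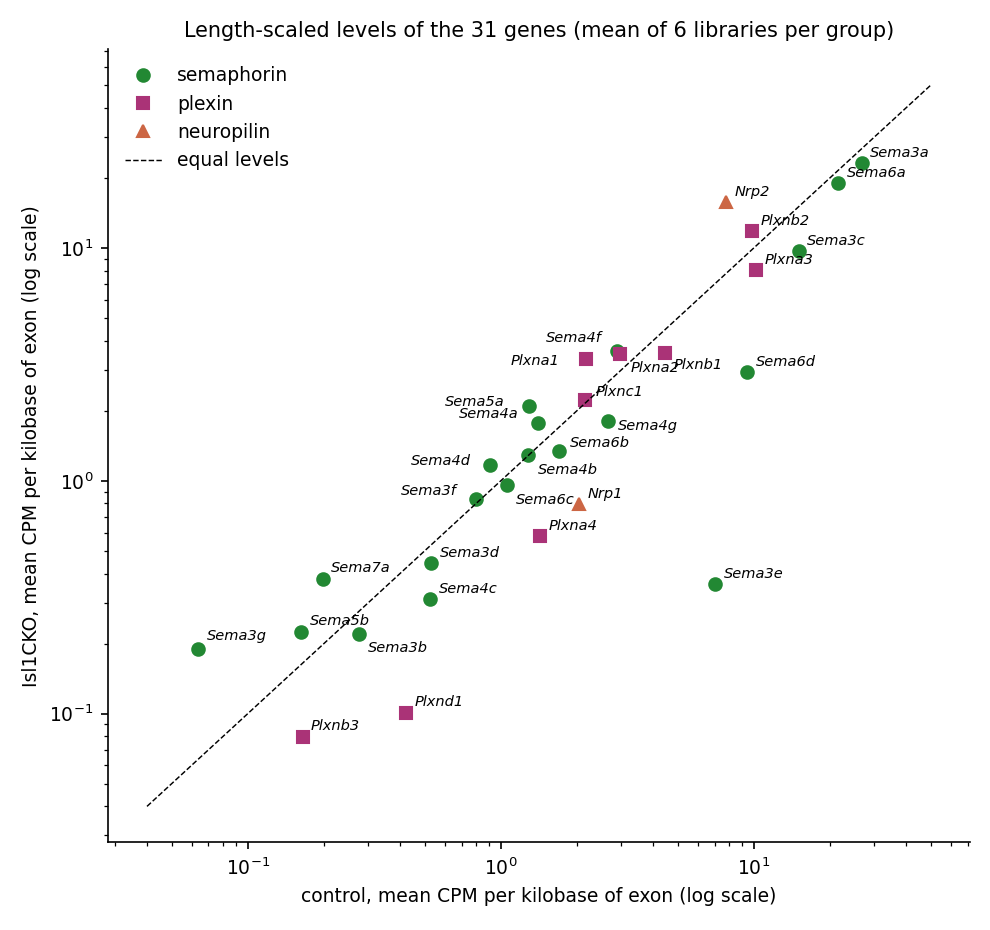
Mean level of each of the 31 genes in CPM per kilobase of exon, controls on the x axis and Isl1CKO libraries on the y axis, both on log scales, with circles for semaphorins, squares for plexins and triangles for neuropilins. Sema3e, at 7.06 and 0.359, lies farthest below the line of equal levels, and Nrp2, at 7.76 and 15.7, lies above it.

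Levels per kilobase also gave the order of the genes. In controls Sema3a (26.8 ± 6.13 CPM per kilobase) and Sema6a (21.6 ± 3.13) led, and they did not differ beyond their spread. Sema3c (15.1 ± 2.44), Plxna3 (10.2 ± 1.86), Plxnb2 (9.86 ± 1.24), Sema6d (9.43 ± 1.99), Nrp2 (7.76 ± 2.26) and Sema3e (7.06 ± 1.35) followed, all with SD over 6 libraries. From Plxna3 to Sema3e each gene lay within the spread of its neighbour. In Isl1CKO libraries Nrp2 moved from position 7 to 3, Sema6d from 6 to 11 and Sema3e from 8 to 25.

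The proteins that carry the plexin signal were read from a list of 53 co-receptors and intracellular partners. These genes were chosen for their known roles, but with earlier results of these data known. Of these, 52 had a row and 47 were tested. In edgeR's test 3 were higher and 0 lower, or 6.38% against 10.2% of all tested genes, and 10 of the 47, or 21.3%, had an unadjusted p under 0.05, against 23.3% of all. The DESeq2 Wald test called 6, or 12.8%, against 14.2% of all 14813 fitted genes, of which 14514 had an adjusted p. The split by direction depended on the fit, since 2 partners were called lower with DESeq2, with the replicate number as a block and with the glial and macrophage covariates. The median log2 fold change was -0.01. Rnd3, an atypical small GTPase, ranged from 180 to 273 CPM in controls and from 411 to 611 CPM in Isl1CKO libraries. All 6 Isl1CKO libraries exceeded all controls, by 1.26 on the log2 scale (SE 0.12; edgeR adjusted p = 8.26e-06), and the call held without Isl1CKO 2, 3 and 5 (edgeR adjusted p = 9.91e-04). Its relative Rnd2 went from 10.1 ± 4.80 to 19.6 ± 2.91 CPM (SD, n = 6; log2 fold change 0.95; edgeR adjusted p = 0.0444). Crmp1, a member of the collapsin response mediator family that relays Sema3a signals to microtubules, went from 1356 ± 174 to 1677 ± 157 CPM (SD, n = 6; log2 fold change 0.31; edgeR adjusted p = 0.0412). Without Isl1CKO 2, 3 and 5 both were as large, at 0.96 for Rnd2 and 0.35 for Crmp1 on the log2 scale, but the calls were lost (edgeR adjusted p of 0.193 and 0.132). Rnd2 lost its call in 13 and Crmp1 in 12 of 21 settings, among them the fit with glial and macrophage covariates. Dpysl2, Dpysl3 and Dpysl5, of the same family as Crmp1, differed by 0.04, 0.03 and -0.02 on the log2 scale. None of them passed (adjusted p = 0.823, 0.847 and 0.965 in edgeR). Dpysl4, also of that family, averaged 315 ± 73.6 CPM in controls and 212 ± 57.5 CPM in Isl1CKO libraries (SD, n = 6). Its log2 fold change was -0.57 (SE 0.20) and did not pass (edgeR adjusted p = 0.0931). Among co-receptors, L1cam averaged 186 and 161 CPM and Itgb1 187 and 197 CPM, and neither passed.

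**Figure D5:**
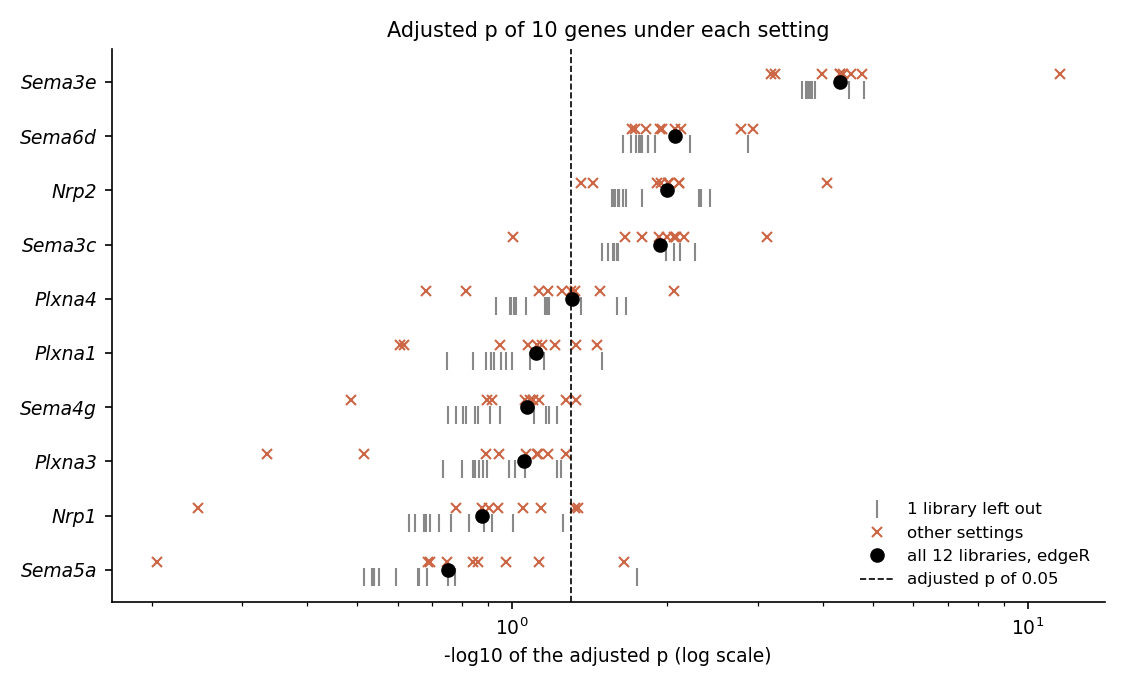
Adjusted p of 10 members, as -log10 on a log axis (x axis), with all 12 libraries in edgeR (black), with 1 library left out (grey ticks) and under the other settings (orange crosses); the dashed line is an adjusted p of 0.05. Sema3e, Sema6d and Nrp2 stay to the right of the line in all settings, Sema3c in all but 1, and Plxna4 lies on both sides.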

How the data were processed

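RNA of 100 sorted neurons per sample was sequenced in 12 samples. The authors deposited 1 table of raw counts per Ensembl gene. The submitters' processing notes name cutadapt 1.18, Bowtie 1.2.2, STAR 2.7.0c, featureCounts and the build GRCm38.p6. The strand setting, which decides how reads of overlapping genes are shared, is not given in the sources used here. Symbols, coordinates and exon lengths came from GENCODE M21 (GRCm38), which located 25627 of the 25674 identifiers.

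All genes passing filterByExpr (minimum count 10) were fitted in edgeR 4.0.16 under R 4.3.3 with TMM scaling, the robust quasi-likelihood F-test and no covariate. Benjamini-Hochberg adjustment covered 14813 genes, and calls were made at 0.05. SE is the absolute log2 fold change divided by the square root of F. CPM used the fit's library sizes, and the floor of 3 counts lay at 0.219 to 0.250 CPM, for counting error only since amplified reads are not independent molecules. Marker levels used log2(CPM + 1). No pair of libraries agreed within sampling noise. The code was tested on simulated data. Alternatives used DESeq2 1.42.0, limma 3.58.1, other scalings and filters, covariates, a replicate block and left-out libraries. All 31 members were accounted for, with the lowest, median and highest library for those past the threshold. Of the partner list, genes past the threshold were named, while Dpysl2, Dpysl3, Dpysl4, Dpysl5, L1cam and Itgb1 were chosen after their values were seen. Members and lists were chosen with earlier results of these data known.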

Additional observations from a re-analysis of the deposited data

Results flagged for a closer look

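In 4 of the 62 groups of 6 library values checked (31 genes in both genotypes), 1 library lay apart from the other 5 by Dixon's gap criterion. About 1 group in 20 does so by chance, which is 3.1 of these groups. Sema3d reached 15.1 CPM in Isl1CKO 1, against 0.373 to 3.72 CPM in the other Isl1CKO libraries. Plxna2 reached 116 CPM in the same library, against 45.7 to 56.3 CPM. Sema7a was at 2.34 CPM in control 6, against 0 to 0.834 CPM in the other controls. Plxnd1 was at 2.76 CPM in Isl1CKO 4, against 0 to 1.02 CPM.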

How the results depend on the processing

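Sema3e, Sema6d and Nrp2 kept their direction and their call in all 21 alternative settings, with log2 fold changes of -5.16 to -4.05, -2.05 to -1.48 and 0.90 to 1.16. Sema3c kept its direction in all 21 and its call in 20. The number of members called was 5 of 27 tested, against 1511 of all 14813 tested genes. With the DESeq2 Wald test it was 8 of 27, against 2100 of 14813 genes. Without Isl1CKO replicates 2, 3 and 5 it was 3 of 31, against 767 of 16222 genes. When 1 library was left out it was 4 to 6, while 1178 to 1517 genes were called in all. The number of partner genes called was 3; it was 6 with the DESeq2 Wald test, 5 with the replicate block, 1 without Isl1CKO replicates 2, 3 and 5, and 1 to 3 when 1 library was left out, at 1 without control 5, control 6, or Isl1CKO 4, 5 or 6. The causes were not tested. Samples with the same replicate number share only a number: their deviations from the group means correlated at -0.056 to 0.152, and only numbers 3 and 5 matched best with their own. With the replicate block 5 members were called, Plxna4 being lost and Plxna1 gained, and 1450 genes were called in all. Direction turned only for members that never passed, and for Isl1. With Schwann and macrophage covariates the log2 fold change was -0.38 for Sema3f, -0.12 for Sema4d and 0.00 for Isl1. Without Isl1CKO replicates 2, 3 and 5 it was 0.39 for Sema3d, -0.49 for Sema4b and 0.01 for Sema6c. Sema6c was at 0.14 with limma-voom. Sema4b, at 0.00, was at 0.00 with DESeq2 size factors and with a mean of at least 5 CPM, -0.02 with upper quartile scaling and -0.03 with the replicate block. With 1 library left out, the log2 fold changes that turned ran from -1.55 to 0.21 for Sema3d, -0.16 to 0.21 for Sema3f, -0.18 to 0.18 for Sema4b, -0.29 to 0.16 for Sema6c, -0.04 to 0.39 for Plxna2 and -0.12 to 0.30 for Plxnc1. Sema3g, Sema5b, Sema7a and Plxnb3 fell below the filter on low counts. With no filter, and without Isl1CKO replicates 2, 3 and 5, all 31 members were tested and none of these 4 was called.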
